A study of Mus musculus with 18 samples.

Results

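The 10 genes described here encode the pro-apoptotic proteins of the Bcl-2 family, namely the BH3-only proteins Bcl2l11 (Bim), Bmf, Bbc3 (Puma), Pmaip1 (Noxa), Bid, Bik and Bad, the less studied relative Bcl2l15 (Bfk), and the effectors Bax and Bak1. They were taken by symbol from a given list that rests on function and not on a threshold of measured values, although earlier results of these data were known when it was made. All 10 were present among the 55487 genes of the count data, and all 10 passed the filter on low counts, which left 15318 genes for testing. The counts came from bulk RNA sequencing of WEHI-231, a murine B cell lymphoma line that models immature B cells and is known to stop growing and to die when its B cell antigen receptor (BCR) is crosslinked. The parental line was compared with #A-59 and #B-20, a pair of TFEB mutant clones that were derived from it by Cas9 editing and each grown from a single cell. Cells received no stimulus (0 h) or 10 µg/ml anti-IgM F(ab')2 during 6 or 18 h. Each of the 9 groups had 2 libraries from independent experiments, which makes 18 in all. Since each mutant is a clone, effects of the mutation and of the clonal origin cannot be told apart in a clone alone, and both clones were set against the same parental libraries.

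Proteins of the Bcl-2 family decide whether the outer mitochondrial membrane of a stressed cell is permeabilized. Bax and Bak1 form the pores, the anti-apoptotic members such as Bcl2, Bcl2l1 and Mcl1 hold them in check, and the BH3-only proteins sense damage or loss of survival signals and either neutralize the anti-apoptotic members or activate the effectors directly. In B lymphocytes, several BH3-only genes are known to be controlled at the level of transcription, whereas Bid and Bad are mainly controlled by cleavage and by phosphorylation, respectively, which RNA counts do not show.

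Library totals ranged from 11223588 to 29655262 counts, and mitochondrial transcripts took 1.25 to 2.18% of them. Replicates correlated with r of 0.993 to 0.998 across genes and differed by more than counting noise in every group. All 10 markers of B lymphocytes were found at 1 CPM (count per Mio counts) or more in each genotype, with summed levels of 6557 to 13442 CPM, while those of the myeloid list had sums of 1.83 to 9.01 CPM for the parental line, 7.75 to 27.8 CPM for #A-59 and 2.71 to 7.05 CPM for #B-20. Itgam was the only 1 of these 5 myeloid markers at 1 CPM or more, Lyz2 and Cd14 had no reads in #A-59, and the part of such transcripts in the results was not tested. Lists of plasma cell, T lymphocyte, NK, fibroblast and erythroid markers summed to at most 7.73, 6.08, 0.523, 7.18 and 3.14 CPM in any library. CPM values given throughout are scaled by the trimmed mean of M-values (TMM). Tfeb itself, the edited gene, stood at 79.2 and 82.8 CPM in untreated parental cells, at 25.9 and 25.5 CPM in #A-59 and at 34.2 and 39.1 CPM in #B-20. Over all times its parental libraries (79.2 to 99.9 CPM) did not overlap with those of #A-59 (25.5 to 40.5 CPM) or #B-20 (34.2 to 54.1 CPM). In the order of time, its log2 fold changes were -1.65, -1.48 and -1.40 for #A-59 against -1.14, -0.81 and -1.05 for #B-20, all passing the edgeR test at an adjusted p of 1.67e-05 or less. Tfeb reads were hence fewer but not absent in the clones, and counts per gene do not show whether these reads carry the edit.

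TFEB is a transcription factor that binds an E-box in the promoters of its targets. RefSeq start site windows (250 bases before to 50 bases after the start, GRCm38.p6, the build of the count data) were at hand for 8 of the 10 genes, 14 windows in all, and were searched on both strands for CACGTG (the E-box), for TCACGTG (the extended E-box, which contains the former) and for the forkhead motif GTAAACA. Those of Bmf and Bcl2l15 are shown because these genes differed most between clones and parental cells, and that of Bax because it is the member richest in E-boxes. Capitals mark the motifs.
Bmf: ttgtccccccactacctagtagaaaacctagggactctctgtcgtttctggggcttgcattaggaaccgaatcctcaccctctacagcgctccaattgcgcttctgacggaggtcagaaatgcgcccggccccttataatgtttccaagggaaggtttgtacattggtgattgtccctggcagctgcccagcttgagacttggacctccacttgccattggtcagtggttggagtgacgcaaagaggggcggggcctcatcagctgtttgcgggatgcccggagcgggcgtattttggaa
Bcl2l15: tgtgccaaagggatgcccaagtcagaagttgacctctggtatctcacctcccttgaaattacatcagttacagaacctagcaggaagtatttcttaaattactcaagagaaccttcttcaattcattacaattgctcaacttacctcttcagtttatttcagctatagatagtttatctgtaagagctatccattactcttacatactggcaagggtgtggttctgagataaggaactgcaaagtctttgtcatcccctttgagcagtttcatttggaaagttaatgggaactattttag
Bax: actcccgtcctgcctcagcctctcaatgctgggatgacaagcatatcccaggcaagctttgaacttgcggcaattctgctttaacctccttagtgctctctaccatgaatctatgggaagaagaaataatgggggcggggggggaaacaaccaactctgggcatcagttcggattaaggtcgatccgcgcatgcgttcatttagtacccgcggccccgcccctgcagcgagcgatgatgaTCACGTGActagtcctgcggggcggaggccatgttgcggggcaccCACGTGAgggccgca

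The Bmf window lies on the minus strand at chr2:118549637-118549936, that of Bcl2l15 on the plus strand at chr3:103832446-103832745, and that of Bax on the minus strand at chr7:45466849-45467148. None of the 3 motifs was found in the 3 Bmf windows or in the Bcl2l15 window, which says no more than that these letters are not within them. The Bax window held CACGTG at 9 bases before and 35 bases after the start, with the first site forming the palindrome TCACGTGA, so that it matches TCACGTG on either strand. Elsewhere, Bbc3 had a CACGTG in 1 of 3 windows and a GTAAACA in another, and Bcl2l11 had a GTAAACA in 1 of 2. Across 32851 windows of the same length, 7.15% held CACGTG, 3.77% TCACGTG and 3.65% GTAAACA.

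The first comparison asked which of these genes differ between TFEB mutant and parental cells at the same time of stimulation. Bcl2l15 was almost lost from both clones, Bmf and Pmaip1 were higher in both, and Bik was higher in #A-59. The remaining members differed by less than 2-fold. Differentially expressed genes (DEGs) are those whose adjusted p in edgeR's quasi-likelihood test is under 0.01 and whose log2 fold change exceeds 1 or is below -1, and a gene that meets only the former is said to have passed the test. Of the 10 members, 3 were DEGs with higher levels in untreated #A-59, where 2.3% of all tested genes were, and 1 with a lower level (all genes 2.48%). After 6 h there were 2 higher (all genes 4.28%) and 1 lower (3.64%), and after 18 h 1 higher (2%) and 1 lower (2.91%). In untreated #B-20, 2 were higher (all genes 1.79%) and 1 lower (3.37%), after 6 h 2 were higher (2.88%) and 1 lower (3.85%), and after 18 h 1 was higher (1.91%) and 1 lower (4.3%). The median log2 fold change of the members stayed between -0.13 and 0.23 in the 6 comparisons, against medians of -0.02 to 0.01 over all tested genes.

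**Figure D1:**
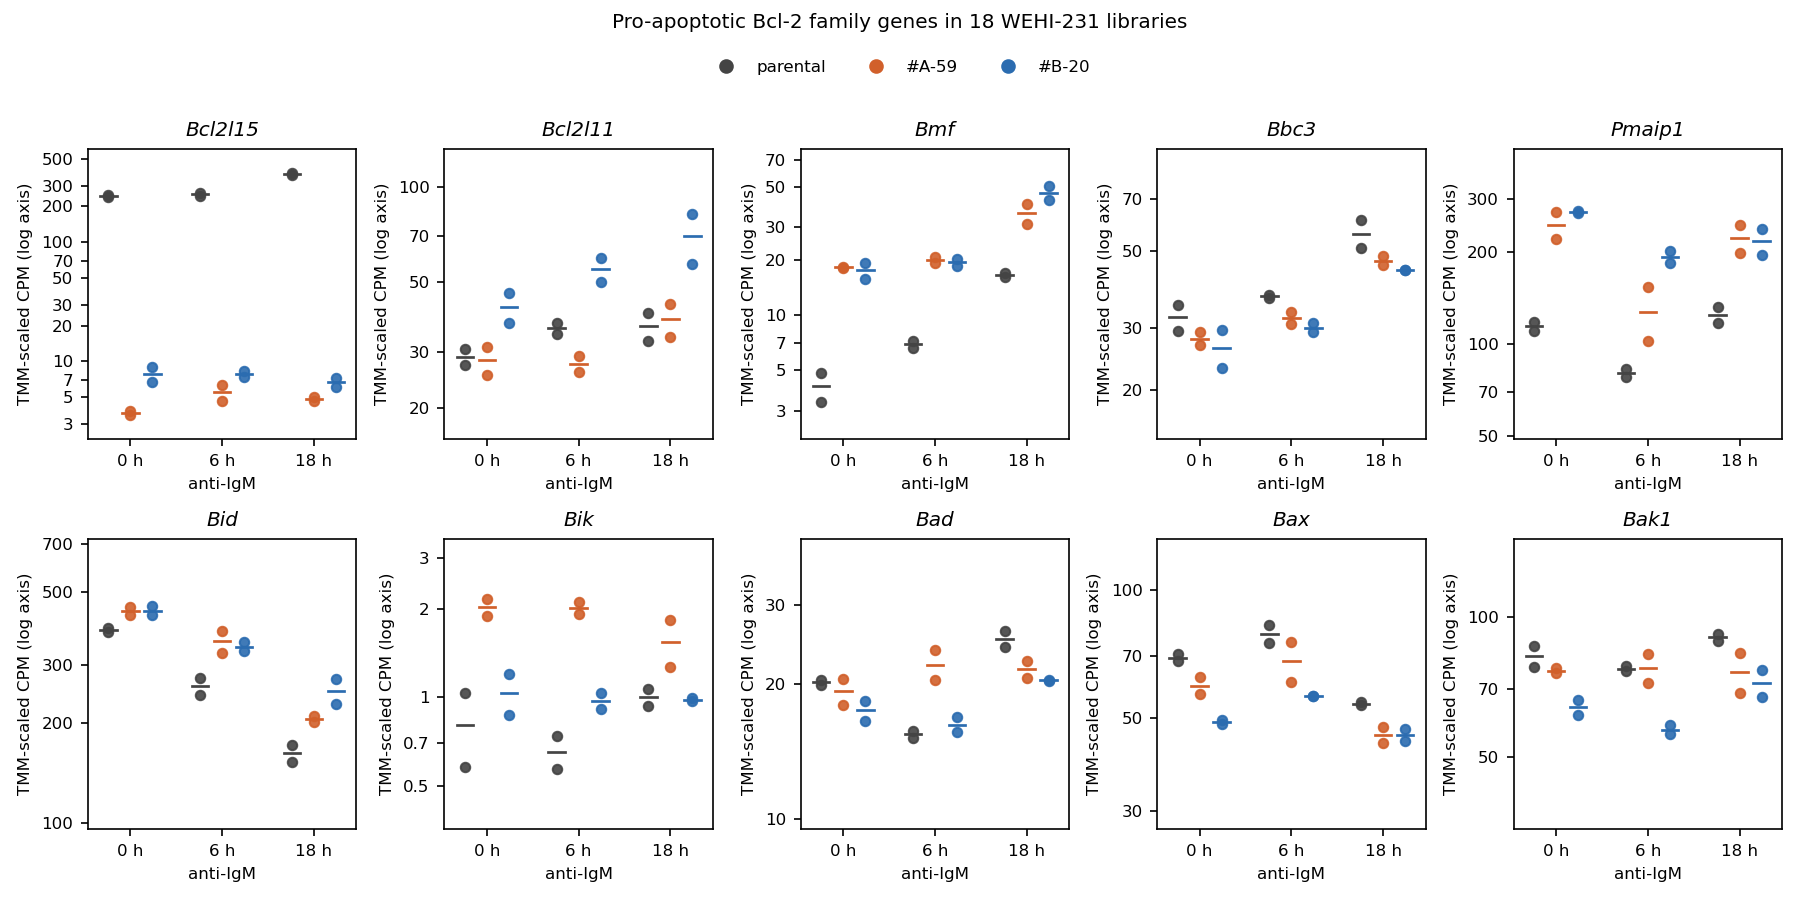
TMM-scaled CPM (log axis, scaled for each panel) of the 10 genes in the 18 libraries, by hours of anti-IgM and genotype. Each point is a library and each bar the mean of 2, and Bcl2l15 of the clones (3.56 to 9.04 CPM) lies far below that of parental cells (239 to 380.2 CPM).

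Bcl2l15 (ENSMUSG00000044165, chr3:103831036-103854618, plus strand) encodes a protein with BH3 and BH2 regions that is best known from the gastrointestinal tract. In parental cells it was expressed at 239 and 250.3 CPM without stimulation, at 246 and 259 CPM after 6 h and at 366 and 380.2 CPM after 18 h. The same groups of #A-59 had 3.56 and 3.83, 4.62 and 6.34, and 4.98 and 4.64 CPM. For #B-20 these were 9.04 and 6.70, 8.22 and 7.32, and 7.25 and 6.08 CPM. Every clone library thus lay far below every parental library, though none was at 0, since 74 to 204 reads were counted in each. The log2 fold changes were -6.06 ± 0.15 (SE), -5.55 ± 0.14 and -6.27 ± 0.15 in #A-59 at 0, 6 and 18 h, or 66.5-, 47.0- and 77.4-fold lower. They were -4.96 ± 0.14, -5.02 ± 0.14 and -5.80 ± 0.14 in #B-20, or 31.2-, 32.4- and 55.9-fold lower, with adjusted p-values (edgeR) of 2.34e-14 or less in all 6 comparisons. By size of the change, Bcl2l15 stood at percentile 99.4 to 99.7 of all tested genes. Log2 fold changes of its nearest tested neighbours in the 6 comparisons were far smaller, namely -0.23 to 0.13 for Ap4b1, -0.46 to 0.20 for Dclre1b, -0.21 to 0.18 for Rsbn1 and 0.13 to 1.01 for Ptpn22. Ptpn22 was itself a DEG as higher in untreated #A-59 (1.01, adjusted p in edgeR 1.42e-05) and passed there at 18 h (0.77, 0.000249). Dclre1b passed as lower in #A-59 at 6 h (-0.46, 0.00577). Gm43064, which overlaps Bcl2l15 on the same strand over 569 exonic bases, had 0 to 4 reads in any library. In bulk RNA, fewer expressing cells and less RNA per cell cannot be told apart.

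Bmf (ENSMUSG00000040093, chr2:118528757-118549686, minus strand) is a BH3-only protein tethered to the cytoskeleton and known to be released upon stress. Its parental levels were 3.36 and 4.84 CPM without anti-IgM, 6.60 and 7.24 CPM after 6 h of it and 16.1 and 16.8 CPM after 18 h. The #A-59 libraries held 18.0 and 18.3, 19.2 and 20.7, and 40.0 and 31.4 CPM. The #B-20 libraries held 15.7 and 19.2, 18.4 and 20.2, and 50.1 and 42.3 CPM. Untreated clones already had about as much Bmf RNA as parental cells after 18 h of anti-IgM, and clone and parental libraries did not overlap at any time. The log2 fold change against parental cells was 2.15 ± 0.17 (SE, adjusted p = 2.29e-08), 1.52 ± 0.16 (6.96e-07) and 1.12 ± 0.15 (2.96e-05) in #A-59 at 0, 6 and 18 h. In #B-20 it was 2.10 ± 0.17 (4.06e-08), 1.48 ± 0.16 (1.42e-06) and 1.49 ± 0.15 (5.21e-07). Without #A-59 replicate 1 at 18 h, the change there was 0.94 and no longer counted as a DEG.

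Pmaip1 (ENSMUSG00000024521, chr18:66458604-66465558, plus strand) encodes Noxa, a BH3-only protein that binds Mcl1 and A1. Parental cells had 118 and 111 CPM before stimulation, 83.2 and 78.4 CPM after 6 h and 133 and 118 CPM after 18 h. In #A-59 the values were 221 and 271, 102 and 154, and 246 and 199 CPM. In #B-20 they were 270.2 and 273, 202 and 185, and 239 and 196 CPM. Each clone library was above both parental libraries of its time, with #A-59 at 6 h being the closest and having the widest spread. For #A-59 the log2 fold changes were 1.10 ± 0.16 (SE, adjusted p = 7.77e-05), 0.66 (0.00391) and 0.83 (0.00122) in the order of time, and for #B-20 they were 1.25 ± 0.16 (2.19e-05), 1.26 ± 0.16 (1.46e-05) and 0.80 (0.00126). Thus Pmaip1 passed the test in all 6 comparisons and was a DEG in 3. The DEG call in untreated #A-59 rested on its replicate 2, without which the log2 fold change was 0.95. At 6 h, #A-59 no longer passed without its replicate 2 (0.34, adjusted p = 0.0668), without parental replicate 1 (0.70, 0.0242) or 2 (0.61, 0.0447) or with only the libraries compared (0.68, 0.0328). At 18 h, the call of #A-59 was lost without its replicate 1 (0.67, 0.0255) or parental replicate 2 (0.75, 0.0283), and that of #B-20 without its replicate 1 (0.66, 0.0194) or parental replicate 2 (0.71, 0.0302).

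Bik (ENSMUSG00000016758, chr15:83526790-83544635, plus strand), a BH3-only protein of the endoplasmic reticulum, was expressed at the limit of what these libraries resolve, with 12 to 56 reads per library. Parental libraries had 0.579 and 1.03 CPM before stimulation, 0.568 and 0.737 CPM after 6 h and 1.07 and 0.934 CPM after 18 h. For #A-59 they had 1.90 and 2.17, 2.12 and 1.93, and 1.83 and 1.27 CPM, and for #B-20 1.2 and 0.868, 1.03 and 0.914, and 0.995 and 0.970 CPM. Bik was thus above both parental libraries in #A-59 at every time, and overlapped with them in #B-20 at 0 and 18 h. The log2 fold change in #A-59 was 1.34 ± 0.29 (SE, adjusted p = 0.00284) at 0 h, 1.63 ± 0.31 (0.000433) at 6 h and 0.66 (0.200) at 18 h, whereas #B-20 gave 0.37 (0.514), 0.58 (0.261) and -0.01 (0.998). At 0 h the call was lost in DESeq2 (adjusted p = 0.0227) and on leaving out parental replicate 1 (0.96), #A-59 replicate 1 (1.44, adjusted p = 0.0139) or #A-59 replicate 2 (1.25, adjusted p = 0.0256), and at 6 h on leaving out parental replicate 1 (1.45, adjusted p = 0.0117).

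**Figure D2:**
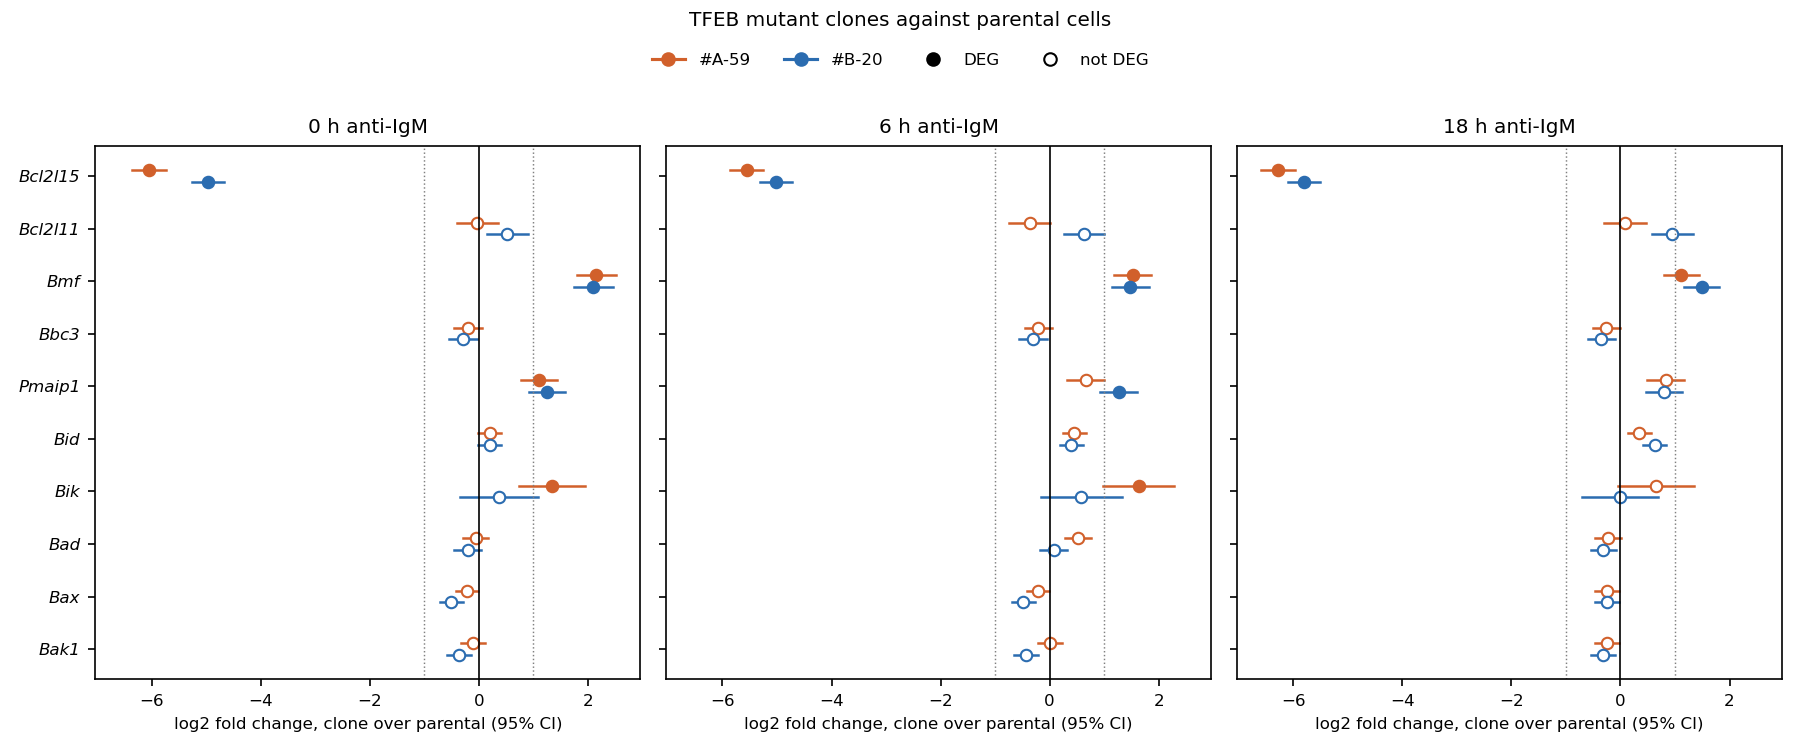
Log2 fold changes of both clones against parental cells at 0, 6 and 18 h with 95% confidence intervals of edgeR's fit. Filled symbols are DEGs and dotted lines mark -1 and 1, and Bcl2l15 (-6.27 to -4.96) stands far to the left of the other members, with Bmf (1.12 to 2.15) on the opposite side.

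Bid, the BH3-only protein that links death receptors to mitochondria once cleaved, was called higher in stimulated clones in 3 of 4 comparisons and in neither clone without stimulus. Its log2 fold changes against parental cells were 0.20 (adjusted p = 0.223), 0.45 (0.00188) and 0.35 (0.0226) for #A-59 in the order of time, and 0.20, 0.40 (0.00684) and 0.63 (0.000142) for #B-20. It hence passed the test in both clones at 6 h and in #B-20 at 18 h, always by less than 2-fold. Of these calls, only that of #B-20 at 18 h held on leaving out any library. At 6 h, that of #A-59 was lost without parental replicate 2 (0.36, adjusted p = 0.0532), without #A-59 replicate 1 (0.32, 0.0299) or with only the libraries compared (0.47, 0.0347), and that of #B-20 was lost on leaving out any of 12 of the 18 libraries (0.30 to 0.48, adjusted p up to 0.133). The interaction terms of Bid with stimulation did not pass in either clone.

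Bcl2l11 encodes Bim, the BH3-only protein most closely tied to the deletion of autoreactive lymphocytes. Its levels ranged from 27.3 to 40.0 CPM in parental cells, from 25.4 to 42.5 CPM in #A-59 and from 37.0 to 82.2 CPM in #B-20. In #B-20 they exceeded the parental libraries at each time, by 0.52 (log2 scale, adjusted p = 0.0508) at 0 h, 0.62 (0.0145) at 6 h and 0.95 ± 0.17 (SE, 0.000657) at 18 h, of which only the last passed the test. In #A-59 the differences were -0.03, -0.37 (0.121) and 0.08, and none passed. At 18 h, without parental replicate 1 or #B-20 replicate 2, the change in #B-20 became 1.11 and 1.19, respectively, and met the DEG criteria. Without parental replicate 2 (0.80, adjusted p = 0.0231), without #B-20 replicate 1 (0.67, 0.0113) or with only the libraries compared (0.95, 0.0312) it no longer passed the test.

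Bbc3, which encodes Puma, a p53- and FOXO-responsive binder of all anti-apoptotic members, ranged from 29.5 to 60.9 CPM in parental cells, from 26.8 to 48.1 CPM in #A-59 and from 23.2 to 44.0 CPM in #B-20. Its 6 log2 fold changes were all below 0 (-0.35 to -0.20), but none passed the test. Bad, whose product is held inactive by growth factor-dependent phosphorylation, ranged from 15.2 to 26.3, from 18.0 to 23.8 and from 15.6 to 20.4 CPM. It passed the test in #A-59 at 6 h only (0.52, adjusted p = 0.00161), and this call was lost without #A-59 replicate 1 (0.39), either parental replicate (0.54 and 0.49) or with only the libraries compared (adjusted p of 0.0142 to 0.0337).

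The effectors were lower in #B-20 by small amounts. Bax ranged from 53.6 to 82.7 CPM in parental cells, from 43.5 to 75.3 CPM in #A-59 and from 43.9 to 56.4 CPM in #B-20, and passed the test in #B-20 at 0 h (-0.51, adjusted p = 0.00133) and 6 h (-0.49, 0.00126). Bak1 ranged from 76.5 to 92.1, from 68.7 to 83.8 and from 55.9 to 77.0 CPM and passed in #B-20 at 6 h (-0.44, adjusted p = 0.00460). With a correction for GC content these values became -0.06 and -0.19 for Bax and -0.24 for Bak1 and no longer passed. The calls of Bax were also lost without parental replicate 1 or either #B-20 replicate (-0.52 to -0.43), and that of Bak1 without any of the 4 libraries compared (-0.47 to -0.42). In #A-59 the log2 fold changes were -0.25 to -0.21 for Bax and -0.25 to 0.01 for Bak1, without a call.

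The next comparison asked how the members respond to BCR crosslinking within each genotype. Bmf went up and Bid went down by 18 h, and these were the only members to become DEGs. Background denotes the share of all tested genes that were DEGs in that comparison. The share of all genes with an unadjusted p under 0.05 was not computed, so that member counts at this level have none beside them. In parental cells none of the 10 members was a DEG after 6 h (edgeR and DESeq2, 4 with an unadjusted p under 0.05, background 2.62%), and after 18 h 1 was higher (background 5.56%) and 1 lower (background 4.75%). In #A-59 there was none at 6 h (both tools, 3 with an unadjusted p under 0.05, background 1.39%) and 1 lower at 18 h (background 4.59%). In #B-20 there was none at 6 h (both tools, 3 with an unadjusted p under 0.05, background 0.385%) and 1 higher at 18 h (background 2.93%). Between 6 and 18 h, 1 member was higher in parental cells (Bmf at 1.25, adjusted p = 5.11e-06, background 7.54%) and 1 in #B-20 (Bmf at 1.26, 4.49e-06, background 2.76%), while #A-59 had none (both tools, 6 with an unadjusted p under 0.05, background 9.02%). At any fold, 5 members passed the test at 18 h against 0 h in parental cells, where 32.6% of all genes did, 4 in #A-59 (31.8%) and 4 in #B-20 (22.8%).

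Parental Bmf passed the test at 6 h with a log2 fold change of 0.76 (adjusted p = 0.00743) and reached 2.01 ± 0.17 (SE, 5.84e-08) at 18 h, its library values given above showing no overlap between any of the 3 times. The call at 6 h was lost with only the libraries compared (0.76, adjusted p = 0.0101) and without parental replicate 1 at 0 h (0.51, 0.148), without either parental replicate at 6 h (0.83 and 0.69) or, narrowly, at 18 h (0.76), whereas that at 18 h was not. In #A-59 the changes were 0.13 at 6 h and 0.98 (2.93e-05) at 18 h, and in #B-20 0.14 and 1.40 (1.99e-06). The value of #A-59 at 18 h thus passed the test just below the fold threshold and was 1.12 without its replicate 2. Bid (ENSMUSG00000004446, chr6:120893119-120917062, minus strand) declined in parental cells from 389.8 and 378 CPM before stimulation to 276 and 244 CPM after 6 h and 172 and 153 CPM after 18 h. For #A-59 the series was 453 and 427, 382 and 327, and 202 and 211 CPM, and for #B-20 426 and 454, 354 and 331, and 229 and 272 CPM. All libraries at 18 h lay below all those at 0 h of the same genotype. Parental cells had a log2 fold change of -1.24 ± 0.10 (SE, adjusted p = 3.52e-08) at 18 h, while that of #A-59 was -1.09 ± 0.10 (1.50e-07) and that of #B-20 -0.81 (9.00e-06).

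Bbc3 passed the test at 18 h in all 3 genotypes with log2 fold changes of 0.80 for parental cells and 0.74 and 0.73 for #A-59 and #B-20, the last being 0.45 with the GC correction. Bcl2l15 rose in parental cells at 18 h (0.61, adjusted p = 0.000162) but not at 6 h (0.05, 0.869), and its changes in the clones did not pass the test (0.39 with adjusted p = 0.0775 in #A-59 and -0.23 with 0.250 in #B-20 at 18 h). Bcl2l11 passed the test at 18 h in #B-20 (0.75, 0.00288), but not with only the libraries compared (0.75, 0.0264) or without #B-20 replicate 1 at 18 h (0.44, 0.0922), #B-20 replicate 2 at 0 h (0.60, 0.0518) or #A-59 replicate 1 at 6 h (0.72, 0.0112), with 0.31 (0.172) in parental cells and 0.42 (0.0611) in #A-59. Pmaip1 was lower at 6 h than at 0 h in every genotype, with -0.50 (0.0458) in parental cells and -0.49 (0.123) in #B-20, while -0.95 (0.000858) in #A-59 passed, other than without #A-59 replicate 2 at 0 h (-0.79, 0.0187) or with only the libraries compared (-0.94, 0.0618). By 18 h it was back near its starting level, at 0.13, -0.15 and -0.32 without a call. Bax passed with lower levels at 18 h in parental cells (-0.36, 0.00662) and #A-59 (-0.39, 0.00427), while #B-20 gave -0.10 (0.462). The parental call was lost without any of its 4 libraries (-0.42 to -0.36), and that of #A-59 without replicate 1 at 0 h (-0.32, 0.0543) or 18 h (-0.35, 0.0480). From 6 to 18 h, Bad (0.71), Pmaip1 (0.63), Bbc3 (0.60) and Bcl2l15 (0.56) also passed as higher in parental cells, and Bid (-0.68) and Bax (-0.55) as lower. In #A-59, Bmf (0.84), Pmaip1 (0.80) and Bbc3 (0.54) passed as higher and Bid (-0.78) and Bax (-0.58) as lower. In #B-20, Bbc3 (0.55) passed as higher and Bid (-0.45) as lower, besides Bmf. Those of Pmaip1 and Bbc3, of parental Bcl2l15 and of Bid in #B-20 were lost on leaving out at least 1 library. Bak1 and Bik did not pass in any of these comparisons, and at 18 h against 0 h Bak1 stayed between -0.01 and 0.17.

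**Figure D3:**
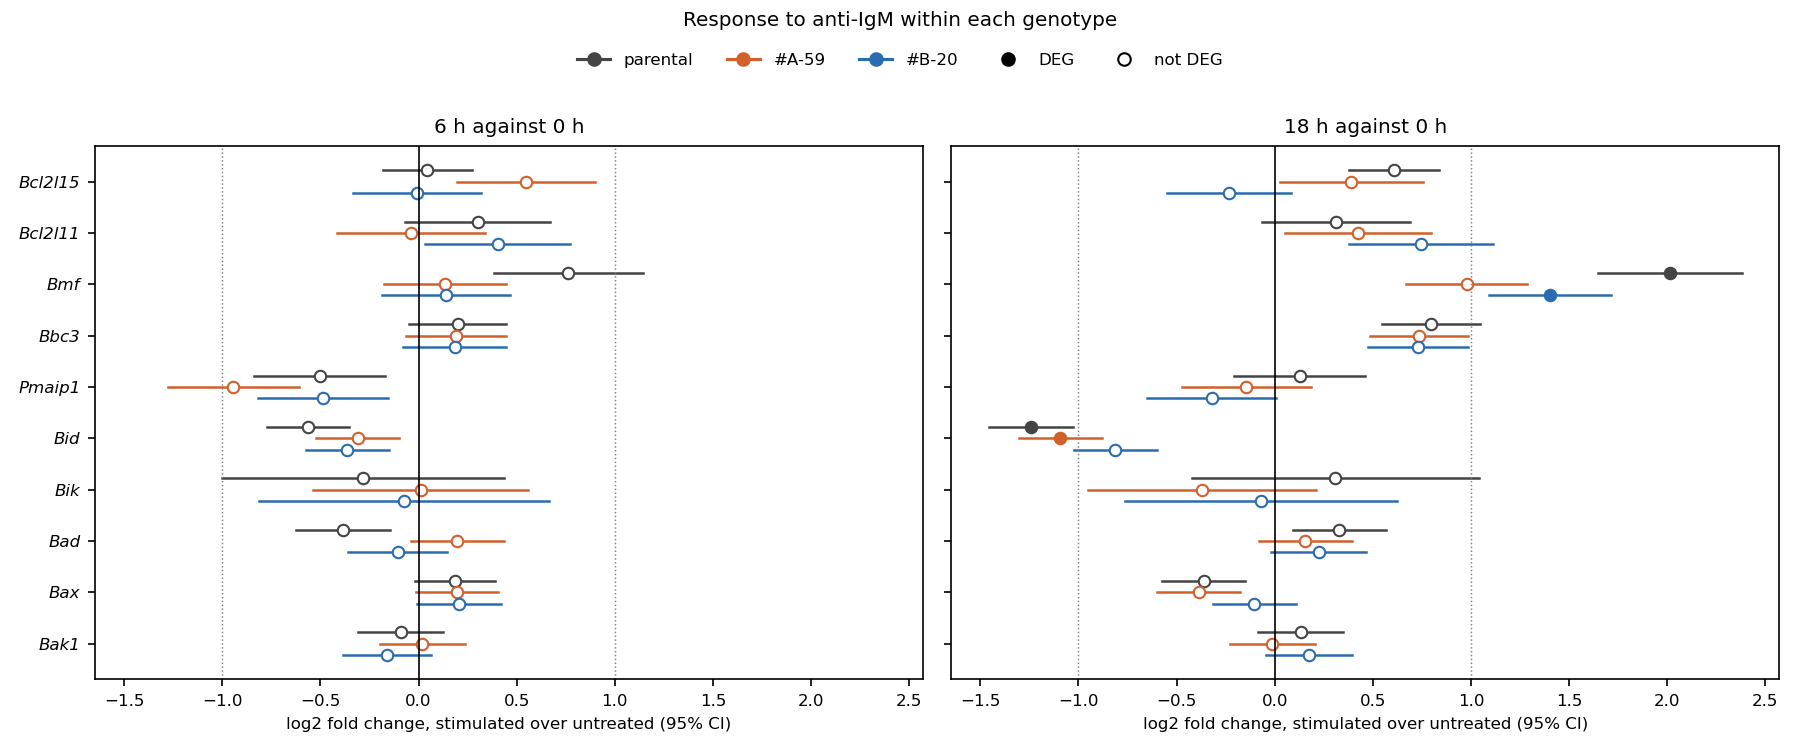
Log2 fold changes of the 10 genes after 6 and 18 h of anti-IgM against 0 h in each genotype, with 95% confidence intervals. Filled symbols are DEGs, namely Bmf at 18 h in parental cells (2.01) and #B-20 (1.40) and Bid at 18 h in parental cells (-1.24) and #A-59 (-1.09).

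Whether these responses differ between clones and parental cells was tested by interaction terms. None of the 40 member tests gave a DEG with edgeR or DESeq2, and 8 had an unadjusted p under 0.05, for which no share over all genes was computed. Among all tested genes, 0.339% and 0.0326% were DEGs for #A-59 at 6 and 18 h, and 0.131% and 0.163% for #B-20. Bmf, which starts from a higher level in the clones, had response differences of -0.63 (adjusted p = 0.208) at 6 h and -1.03 ± 0.23 (SE, 0.10) at 18 h in #A-59, and of -0.62 (0.429) and -0.61 (0.246) in #B-20. The difference of #A-59 at 18 h ranged from -1.30 to -0.78 over the alternative analyses, with adjusted p between 0.00163 and 0.496, the smallest arising without the filter on low counts. Bcl2l15 had the lowest adjusted p of the 40 tests (0.0454, #B-20 at 18 h), with a difference of -0.84. Over the alternatives it ranged from -1.04 to -0.61 with adjusted p between 0.00223 and 0.282, the smallest being that of DESeq2. With 2 libraries per group, an adjusted p above the threshold does not show that the responses were alike.

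Both clones were also compared with each other, since properties of a clone would show there. At 0 h, 1 of 10 members was a DEG with higher levels in #B-20 than in #A-59 (background 1.28%), which was Bcl2l15 at 1.09 (adjusted p = 0.000119). None was at 6 h (both tools, 7 with an unadjusted p under 0.05, background 5.82%) or at 18 h (both tools, 5 with an unadjusted p under 0.05, background 4.82%). The background again counts DEGs and not genes with an unadjusted p under 0.05, whose share was not computed. Bmf gave differences of -0.05 (95% confidence interval -0.37 to 0.27), -0.05 (-0.36 to 0.27) and 0.37 (0.08 to 0.67) at 0, 6 and 18 h, none of which passed. For Pmaip1 the difference was 0.14 (-0.19 to 0.47) at 0 h and -0.03 (-0.36 to 0.30) at 18 h, with 0.60 (adjusted p = 0.00822) at 6 h. Bcl2l11 passed as higher in #B-20 at 6 h (0.99) and 18 h (0.87). Tfeb itself was higher in #B-20 than in #A-59 by 0.51 (0.00436), 0.67 (0.000206) and 0.34 (0.0270).

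Levels of different genes can be compared only per length, for which fragments per kilobase and Mio counts (FPKM) were computed with the length of each gene's canonical transcript. In untreated parental cells, Bcl2l15 led with 294 FPKM, followed by Bid with 174, Bax with 71.1, Pmaip1 with 41.9, Bak1 with 34.6, Bad with 17, Bbc3 with 12 and Bcl2l11 with 5.73 FPKM. Bmf (0.882 FPKM) and Bik (0.849 FPKM) came last and overlapped with each other, whereas all other neighbours in this order did not. In both clones Bid took the lead with 200 FPKM (mean of 2 libraries at 0 h), ahead of Pmaip1 with 90.1 FPKM in #A-59 and 99.4 FPKM in #B-20, and Bcl2l15 stood at 4.43 and 9.44 FPKM. The order depends on the length assumed, as the length of all exons combined put Pmaip1 second in parental cells and first in the untreated clones. Which isoforms were expressed, including those of Bcl2l11, is not resolved by counts per gene.

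Of the summed FPKM of the 10 genes, Bcl2l15 made up 44.3 to 45.8% in untreated parental cells, 48.8 to 52.3% at 6 h and 61.8 to 63.6% at 18 h, but 0.999 to 2.2% in #A-59 and 1.87 to 2.69% in #B-20. Bid went from 26.1 to 27.3% at 0 h to 9.68 to 11% at 18 h in parental cells, and from 45.7 to 48.1% to 29.1 to 31.0% in #A-59 and from 46.5 to 47.9% to 31.0 to 36.6% in #B-20. Pmaip1 made up 4.81 to 6.82% of the parental sum, 10.1 to 28.5% in #A-59 and 19.4 to 26.1% in #B-20. The sum itself was 596 to 718 FPKM in parental cells, 308 to 427 in #A-59 and 335 to 430 in #B-20. Without Bcl2l15 the clones were above parental cells at each time. At 0 h these sums were 356 to 361 FPKM in parental libraries, 419.8 to 423 FPKM in those of #A-59 and 405 to 422 FPKM in those of #B-20. After 6 h they were 284 to 309, 338 to 367 and 341 to 357 FPKM, and after 18 h 261 to 272, 303 to 309 and 326 to 331 FPKM. Shares and sums depend on the length assumed. By the length of all exons combined, Bcl2l15 made up 25.2 to 26.2% of the sum in untreated parental cells, and Pmaip1 made up 17.9 to 19.3% there and 38.3 to 44.7% in untreated #A-59, ahead of Bid (19.7 to 21.9%). The untreated sums were then nearly alike, with 225 to 227 FPKM in parental libraries, 211 to 222 FPKM in #A-59 and 213 to 219 FPKM in #B-20. Those of stimulated parental libraries remained higher by this length. They were 203 to 210 FPKM at 6 h against 171 to 172 in #A-59 and 177 to 185 in #B-20. At 18 h they were 240 to 243 FPKM against 180 to 191 and 186 to 196.

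**Figure D4:**
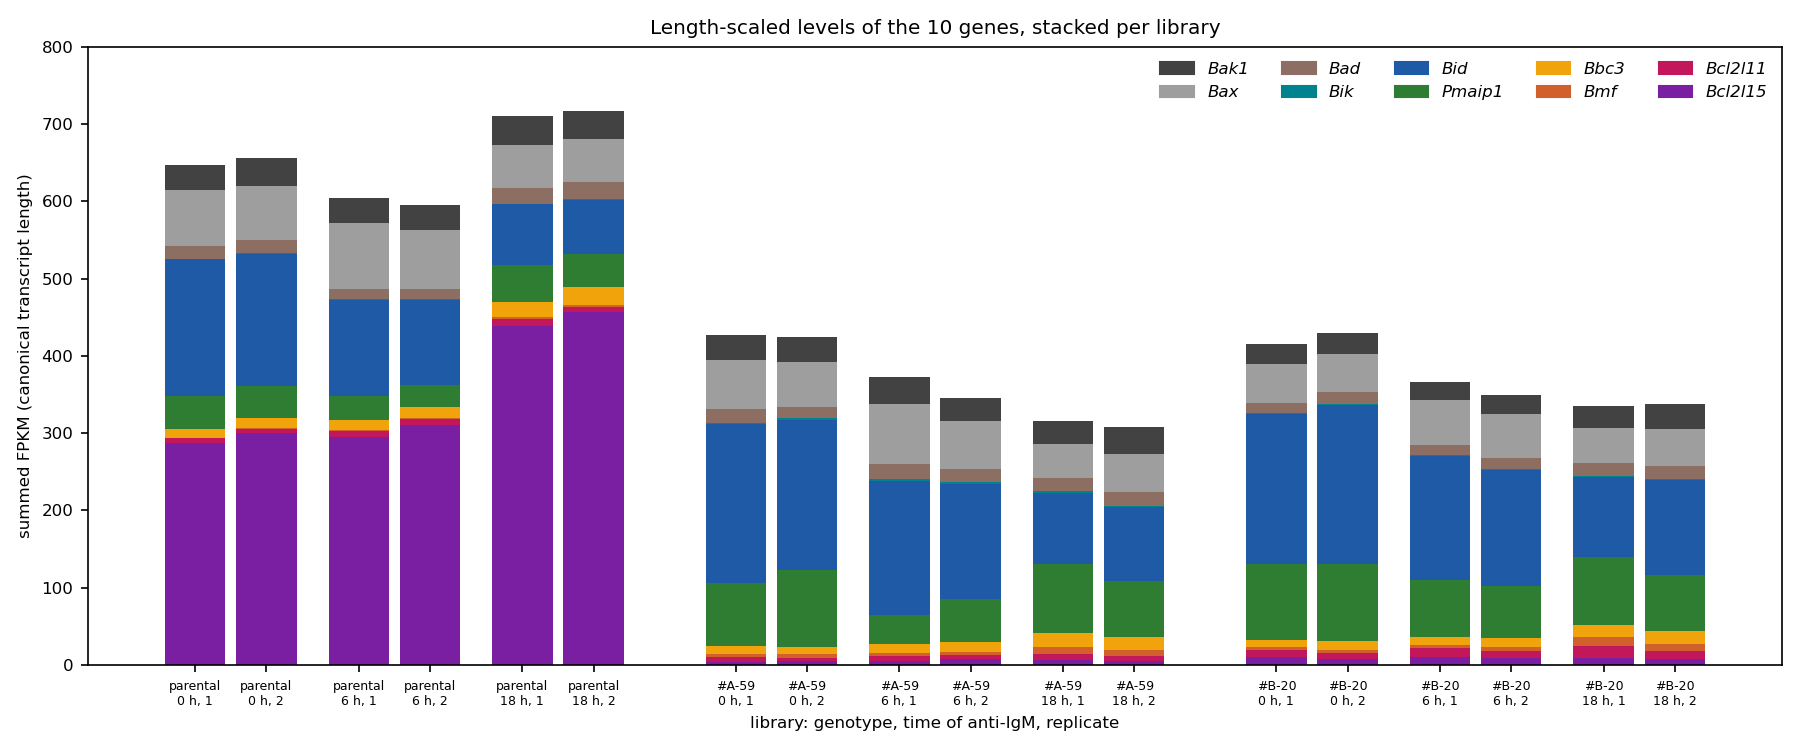
Stacked FPKM (canonical transcript length) of the 10 genes in each of the 18 libraries, with the axis starting at 0. Bcl2l15 fills 44.3 to 63.6% of the parental bars and 0.999 to 2.69% of those of the clones, where Bid and Pmaip1 make up most of the bar at this choice of length.

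To describe which genes share the pattern of the 3 members that differed in both clones, Pearson correlations over the 9 group means of log2(CPM + 1) were computed against 2059 tested genes that varied between groups. Among the closest to Bmf were I830077J02Rik (r = 0.971) and Chst15 (0.964). Those closest to Pmaip1 were Megf9 (0.961), Vmn2r84 (0.956) and Rp2 (0.948). For Bcl2l15 they were Spata17 (0.999), Radx (0.998) and A230107N01Rik (0.997), which like Bcl2l15 are set apart mainly by genotype. The groups share parental origin and, within a clone, its clonal history, so that these values are descriptions.

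Reads were counted without strand information, so that genes with overlapping exons can exchange reads. Bid overlaps Bcl2l13 on the opposite strand over 3059 bases, and Bcl2l13 had 962 to 2634 reads per library with log2 fold changes of -0.19 to -0.06 between clones and parental cells. Smaller overlaps exist for Bad with Gpr137 (914 bases) and Bak1 with Ggnbp1 (437 bases). Bmf, Pmaip1, Bik and Bbc3 overlap with no other gene.

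The opponents and partners of these proteins were examined as lists. Of 13 other genes of the Bcl-2 family, 9 were tested, as Bcl2l2, Bcl2l10, Bok and Hrk did not pass the filter on low counts. Hrk, a BH3-only gene best known from neurons, had 0 to 2 reads per library and no read in 13 of 18, where a count of 0 allows a level of up to 3 counts. In #A-59, 1 of the 9 was a DEG at 0 h (all genes 2.48%) and at 18 h (2.91%), each time Bcl2l14 as lower (-1.22 and -1.24). The list's median log2 fold changes were -0.09, -0.21 and 0.30 at the 3 times against -0.02 to -0.01 over all genes. In #B-20 the medians were 0.28, 0.38 and 0.49 against 0 to 0.01 over all genes. There, 1 gene was a DEG at 6 h (all genes 2.88%) and 2 at 18 h (1.91%), all higher. Those were Bcl2 at 6 h (1.16 ± 0.12 SE, adjusted p = 4.76e-07) and Bcl2a1b (1.14, 0.00313) and Bcl2a1d (1.26, 0.000247) at 18 h, which encode near-identical copies of A1 that may exchange reads. Bcl2, the founding survival factor, also passed in #B-20 at 0 h (0.73) and 18 h (0.89) and in #A-59 at 18 h (0.57). Mcl1, which is bound by Noxa, passed at 6 h in #A-59 (0.53) and #B-20 (0.70). Passing as lower were Bcl2l1, which encodes the survival protein Bcl-xL, in #A-59 at 0 h (-0.77, 0.00296), and Bcl2l12 in #A-59 at 0 h (-0.59, 0.00385) and 6 h (-0.75, 0.000279). In parental cells at 18 h of anti-IgM, 1 of 9 was a DEG (all genes 4.75% as lower), namely Bcl2a1d as lower (-1.14, 0.000293). The list's median there was -0.51 against 0.04 over all genes.

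Of 17 genes acting downstream of mitochondria, caspases and their inhibitors among them, Cycs, which encodes cytochrome c, was a DEG in #A-59 at 6 h (-1.10, adjusted p = 0.00551). In parental cells Birc3, an inhibitor of apoptosis induced by NF-κB, fell at 6 h (-1.52, adjusted p = 6.01e-09) and 18 h (-1.06, 8.88e-08), and Endog fell at 18 h (-1.19). In #A-59, Birc3 was a DEG as lower at 6 h and Endog at 18 h. No gene of this list was a DEG against 0 h in #B-20, though 1 passed as lower at 6 h. The list's medians remained between -0.14 and 0.08 in the comparisons of clones and of anti-IgM.

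Among 12 transcription factors known to act on BH3-only genes, all tested, Tfeb was the only DEG of both clones at the same time. Anti-IgM brought 4 of them past the threshold in parental cells at 18 h, where 5.56% of all genes were DEGs as higher and 4.75% as lower. Foxo1 was higher (1.04, adjusted p = 8.56e-05). Myc (-2.48, 0.000140), Atf4 (-1.18, 4.94e-09) and Trp73 (-3.50, 0.000102) were lower, the last being counted 1 and 3 times at 18 h. Atf4 and Trp73 were DEGs as lower in both clones too at 18 h, Myc in #A-59 but not #B-20, and Foxo1 in neither clone. Ddit3, which encodes the stress factor Chop, was a DEG in parental cells at 6 h (1.2, 3.77e-05) and back at its starting level at 18 h (0.00). Foxo1 was lower in both clones at 6 h (-0.72 in #A-59 and -0.81 in #B-20, both passing the test) with no call at 0 and 18 h. Foxo3 stayed between -0.27 and 0.19 in the 6 comparisons without a call. In #A-59 at 6 h, Trp73 was a DEG as higher (3.48 and 2.17 CPM against 0.786 and 1.10 CPM in parental cells). Myc was a DEG as lower there (59.8 and 43.7 CPM against 162 and 158 CPM). Neither was a DEG in #B-20 against parental cells.

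Of 18 p53 targets, 15 were tested, and their medians against parental cells were -0.30 to 0.00. Fas, chosen here after its values were seen, moved in opposite directions, since it was higher in #B-20 at all times (3.29, 3.19 and 3.27) and lower in #A-59 at 0 h (-1.72), at mean levels of 7.38 CPM or less. Tnfrsf10b, which encodes the TRAIL receptor, was a DEG with lower levels in #A-59 at all times (-1.35, -1.45 and -1.33) and passed as lower in #B-20 at 0 h (-0.65) and 6 h (-0.68). Trp53inp1 was a DEG with a lower level in #B-20 at 18 h (-1.27, adjusted p = 0.000256). In parental cells, Trp53inp1 (1.86) and Btg2 (1.54) rose and Aen (-1.05) fell at 18 h. All of these were DEGs of like direction in #A-59 at 18 h, and Trp53inp1 was in #B-20 as well. Bbc3, Pmaip1 and Bax are known p53 targets as well but were kept out of this list.

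Of 24 partners and modifiers of Bcl-2 family proteins, such as kinases and 14-3-3 proteins, 23 were tested, and Pim2 was the DEG in the clones. Pim2, a survival kinase known to phosphorylate Bad, had 75.2 and 69.0 CPM in untreated parental cells, 52.0 and 44.6 CPM after 6 h and 30 and 37.3 CPM after 18 h. In #A-59 it had 223 and 177, 160.3 and 143, and 64.3 and 52.2 CPM, and in #B-20 156 and 151, 181 and 160.4, and 83.1 and 58.3 CPM. The clones were above parental libraries at each time without overlap, by 1.47, 1.65 and 0.78 in #A-59 and by 1.09, 1.82 and 1.06 in #B-20 on the log2 scale, of which only #A-59 at 18 h was no DEG (adjusted p = 0.00306). Upon anti-IgM, Pim1 fell in parental cells at 6 h (-2.56, adjusted p = 2.20e-08) and 18 h (-2.77, 5.11e-09), and Pim2 fell at 18 h (-1.09, 4.83e-05). In both clones, too, Pim1 was a DEG as lower at 6 and 18 h and Pim2 at 18 h.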

How the data were processed

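RNA of 18 WEHI-231 cultures was sequenced as single-end, non-stranded reads of 50 bases. The values are raw counts of reads per gene, deposited by the authors as 1 file per library. The submitters' processing notes name bcl2fastq 2.20.0.422, STAR 2.5 and featureCounts 1.5.0-p1 with GRCm38, and the treatment of reads that match several genes is not given in the sources used here. Groups were taken from the labels, with 2 libraries in each of 9 groups.

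Counts were analysed in R 4.3.3 with edgeR 4.0.16 (filterByExpr, TMM, robust quasi-likelihood fit over all 18 libraries with a term per group). In each of 22 comparisons, p-values were adjusted by the method of Benjamini and Hochberg over the 15318 genes tested. DEGs were called at an adjusted p under 0.01 together with a log2 fold change of more than 1 in either direction. All tests were two-sided. Lengths, overlaps and neighbours came from GENCODE vM39, matched by gene ID, and promoter windows from RefSeq. Coordinates of genes and windows are those of GRCm38. Figures were drawn with matplotlib 3.10.9 under Python 3.11.15. The scripts were tested on simulated data.

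The members and gene lists were chosen with earlier results of these data known. All members were described, with every library's value for those that were DEGs in any comparison, and list genes were named where both clones had them as DEGs of like direction at a time, or in parental cells after anti-IgM. Further list genes are named where a count of 5 or fewer called them or, like Bcl2, Mcl1, Bcl2l1, Bcl2l12, Bcl2l14, Foxo3, Cycs and Tnfrsf10b, because their values were of interest, and these were chosen after their values were seen. The likeness search used genes with at least 1 CPM in some group and an SD over groups of at least 0.5. Alternatives were DESeq2 1.42.0, other scaling, other filters on low counts, fits of only the libraries compared, a GC correction by loess (span 0.5), a replicate block and leaving out each library in turn. Intervals of log2 fold changes are those of the edgeR fit and include the spread between libraries, whereas the floor of 3 counts covers counting error only. Some results on single genes outside the family are not reported here.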

Additional observations from a re-analysis of the deposited data

Results flagged for a closer look

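In 6 tests the clones differed from each other although both were set against the same parental libraries, which means that their differences from parental cells were unequal. These tests are the direct comparison of #B-20 with #A-59 by edgeR at an adjusted p under 0.01. The share of all tested genes that passed there is not given, so that an excess among the members was not tested. Bcl2l15, although low in both clones, was higher in #B-20 at 0 h by 1.09 ± 0.17 (log2 scale, SE, adjusted p = 0.000119), with both #B-20 libraries above both #A-59 libraries. This value was 0.91 with the GC correction and 0.86 without #B-20 replicate 1. Bcl2l11 was higher in #B-20 at 6 h by 0.99 ± 0.18 (0.000472) and at 18 h by 0.87 ± 0.17 (0.00122), again without overlap of the libraries. With the GC correction (1.01) or at least 10 counts in every library (1.001), Bcl2l11 met the DEG criteria at 6 h. At 6 h the test was not passed without #A-59 replicate 1 (1.08, 0.0133) or 2 (0.91, 0.0116), and at 18 h not without #A-59 replicate 2 (0.71, 0.0234), #B-20 replicate 1 (0.58, 0.0229) or with only the libraries compared (0.86, 0.0320).

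At 6 h, Pmaip1 was higher in #B-20 by 0.60 ± 0.16 (adjusted p = 0.00822), while Bad (-0.45 ± 0.12, 0.00647) and Bak1 (-0.44 ± 0.10, 0.00355) were lower. Each of these 3 lost its call with the GC correction and when only the libraries compared were fitted. Each also lost it without #A-59 replicate 1 (0.33, -0.33 and -0.34, respectively) or either #B-20 replicate at 6 h, and Pmaip1 moreover without any of 8 libraries outside this comparison (0.60).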

How the results depend on the processing

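The 17 DEG calls of members between clones and parental cells, 6 upon anti-IgM, 0 for the difference in response and 1 between clones became 28, 31, 0 and 6 at any fold change. The share of all tested genes at any fold is given only for 18 h against 0 h (22.8 to 32.6%). Whether the members exceed that of all genes in the other comparisons was not tested. Without the filter on low counts 1 difference in response was called (Bmf, #A-59 at 18 h), and with at least 10 counts in every library 3 differences between clones were, besides 7 calls upon anti-IgM. Leaving out each library in turn gave 15 to 18, 6 to 8, 0 to 0 and 0 to 2 calls. DESeq2 gave 16, 6, 0 and 1. Apart from leaving out a library, 492 of 520 recomputed log2 fold changes kept their direction and their call, 28 lost the call and 0 reversed. The call was that of a DEG where the main result was a DEG, and otherwise an adjusted p under 0.01. A lost call can hence rest on the size of the change alone. With a library left out, 1074 of 1170 kept direction and call, 96 lost the call and 0 reversed. CPM without TMM moved 6 of 90 group means by more than the spread between replicates, and FPKM by the length of all exons combined, an alternative chosen after seeing the data, moved 68 of 90.

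The replicate block gave 17, 6, 0 and 1 calls, alone and together with the GC correction. With both, however, the 1 call between clones was Bcl2l11 at 6 h (1.01) in place of Bcl2l15 at 0 h (0.91). Deviations of same-numbered libraries from their group means correlated by -0.0731 to 0.496 over 36 pairs of groups (median 0.110, 18 above 0.1 and 0 below -0.1). The labels do not say whether the numbers mark a pairing across groups, so that the block was run as an alternative only.

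Depth limits Bik most, at 12 to 56 reads per library. With 2 libraries per group, p-values rest on the spread pooled across all groups.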
